A study of Homo sapiens with 6 samples.

Results

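SZ95 is a line from a human sebaceous gland, immortalized with SV40 large T antigen and labelled as wild-type epithelial cells. The baseline transcriptome described here is that of its vehicle controls, chosen as the control columns of one read count table with all of its 27685 genes. They are 3 of the 6 libraries of the series, and the other 3, from cells given PM2.5, were not used. The control cells received 20% ethanol for 24 h in phenol-red-free DMEM/F-12, for which the labels list 1% penicillin-streptomycin as the only addition. Before that they grew in medium with 10% heat-inactivated serum, CaCl2 at 1 mM and EGF at 5 ng/mL. Whether 20% was the strength in the medium or that of the added vehicle is not given in the sources used here, and no library of cells without ethanol was analysed here. It is 1 line kept in culture, and nothing says whether the 3 libraries came from separate cultures, so the spread between them may be technical. With a single group, no test was made.

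Sebocytes are the epithelial cells of the sebaceous gland, which fill with lipid as they mature and then burst to release sebum. Human sebum holds triglycerides, wax esters, squalene, cholesterol and free fatty acids, made through fatty acid synthase, desaturases and the sterol pathway under the control of SREBP transcription factors. Androgens, retinoids, PPARγ ligands, melanocortins and growth factors are known to act on the gland, and its cells also take part in skin defence.

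The 3 libraries held 62537562, 63938558 and 70616698 counts on genes, and detected 18256, 18291 and 18329 genes with at least 1 count. Levels are given as CPM, counts scaled to the same total in each library. Values for single libraries follow the order control 1, control 2 and control 3, and an average ± SD is over n = 3 libraries. A set of 13473 genes, 48.7% of the table, reached 1 CPM in every library, 2262 reached 100 CPM and 65 reached 1000 CPM. At the other end, 8138 genes had 0 counts in all 3 libraries, which allows up to 0.0152 CPM over the libraries together, and 9737 genes, 35.2% of the table, had at most 3 counts in every library. This level of at most 3 counts is written below as the floor. It covers counting error only, and a count near 0 need not mean an absent transcript. The shares of 48.7% at 1 CPM or more and 35.2% at the floor are the background for the counts of each gene list below. RPL21, a protein of every cytosolic ribosome, averaged 0.207 ± 0.0410 CPM, although 83 of the 86 genes of its class reached 1 CPM.

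The counts were spread over many genes. The 10 most abundant genes took 4.07% ± 0.0250 of the counts, 44 genes made up 10% of them and 1160 genes made up 50%. Mitochondrial ribosomal RNA RNR2 led with 8951, 9232 and 8936 CPM, and the elongation factor EEF1A1, which carries aminoacyl-tRNA to the ribosome, came next with 5747, 5320 and 5492 CPM. Both were close among the libraries, with control 2 the highest for RNR2 and the lowest for EEF1A1. The giant scaffold protein AHNAK had 4338, 4569 and 4652 CPM and the iron storage subunit FTH1 had 4488, 3998 and 4101 CPM. The actins ACTG1 and ACTB averaged 3639 ± 102 and 2998 ± 109 CPM. PSAP, the precursor of the saposins that help degrade sphingolipids in lysosomes, averaged 2889 ± 159 CPM.

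The rest of the 20 most abundant genes served varied roles. The membrane mucin MUC16 averaged 2871 ± 236 CPM and was highest in control 3. ALDH1A3, which oxidizes retinal to retinoic acid, averaged 2552 ± 42.0 CPM. The keratins KRT8 and KRT19 had 2436 ± 32.9 and 2193 ± 65.7 CPM. ANXA2, a membrane-binding annexin, had 2183, 2760 and 2243 CPM, with control 2 above the other libraries. TIMP2, an inhibitor of matrix metalloproteinases, had 2367 ± 127 CPM, and the laminin chain LAMA5 had 2056 ± 76.1 CPM. Further members of the 20 were EEF2, EEF1G, MYH9, RPLP0 and TPT1, at 2012 to 2345 CPM.

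Long transcripts collect more reads, so genes were also ranked by CPM per kilobase of their longest annotated transcript, a length that 98.3% of the genes at 1 CPM or more had. On this scale RNR2 remained first with 5799 ± 107 CPM per kilobase, followed by FTH1 with 3414 ± 210 and the HLA class I light chain B2M with 1937 ± 22.8 CPM per kilobase. MUC16, with a transcript of 43816 bases, fell to rank 982 with 65.5 ± 5.38 CPM per kilobase, and AHNAK to rank 185. Of the 20 leading genes by CPM, 11 were also among the 20 leading genes per kilobase. The next places were less certain, since the values of B2M, RPS2 and RPS21 each overlapped with those of the gene after it. A longest transcript understates the level of a gene that mainly uses a shorter one.

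**Figure D1:**
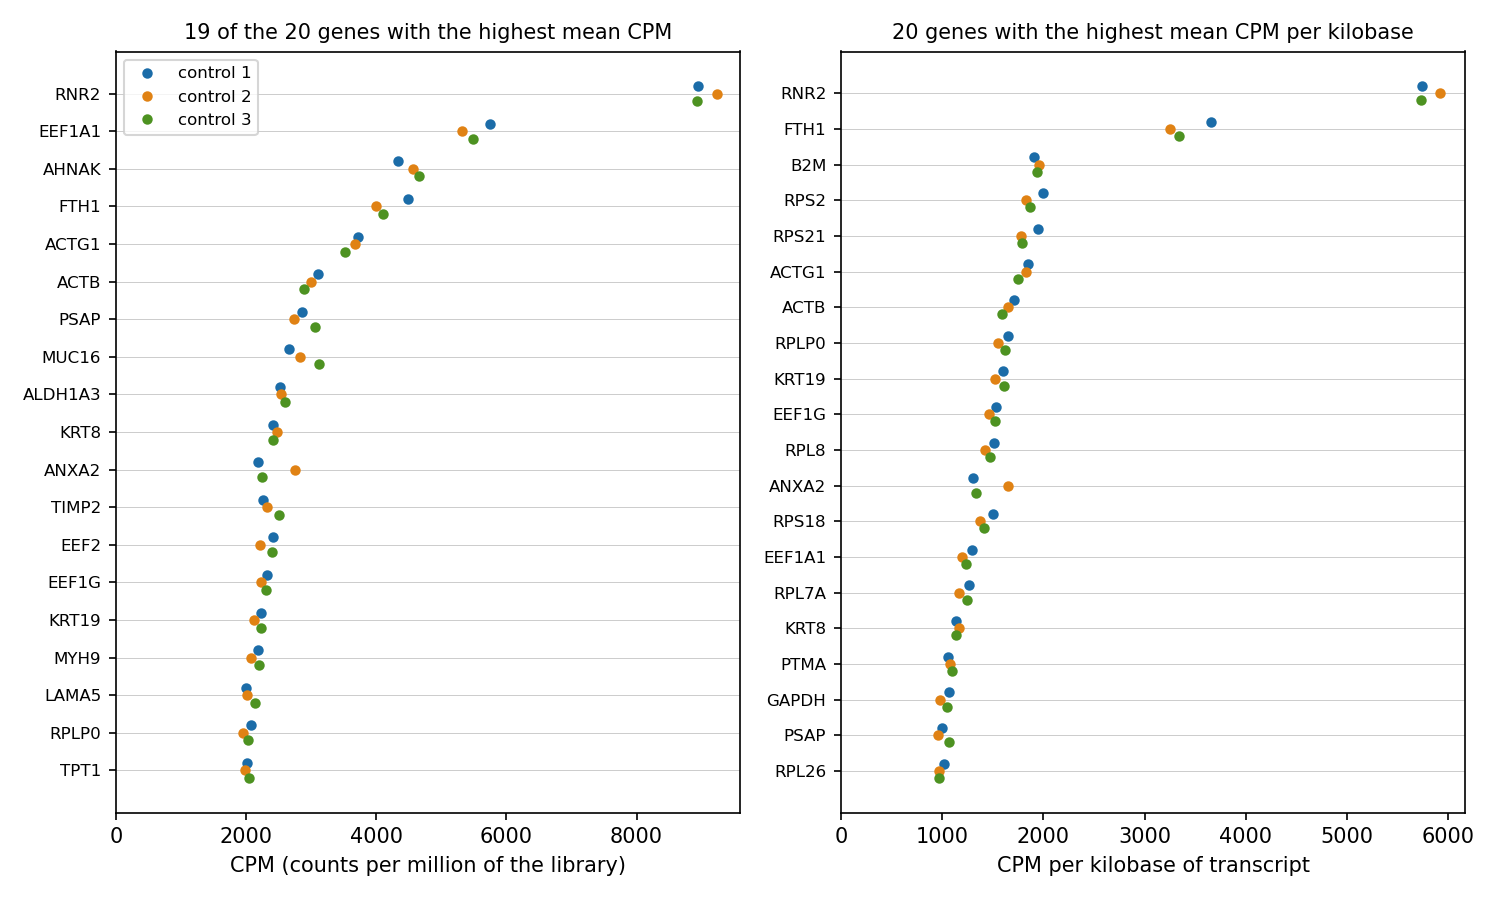
Left are 19 of the 20 genes with the highest mean CPM and right the 20 genes with the highest mean CPM per kilobase, from top to bottom, with 1 point for each of the 3 control libraries on linear axes from 0. RNR2 stands apart on both scales, and ANXA2 shows 1 library, control 2, to the right of the others.

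Translation genes made up a large part of these lists. Cytosolic ribosomal proteins took 4.59% ± 0.0793 of all counts and the EEF and EIF factors 2.12% ± 0.0485. Messenger RNAs of this machinery are known for a start with a C followed by a run of pyrimidines (5′ TOP), through which growth signalling controls their translation. The annotated start of 44 of 68 ribosomal protein genes with a RefSeq promoter had C followed by at least 4 bases of C or T, read on the transcribed strand only, against 4.37% of 18816 genes of the table with a promoter and 5.32% of those at 1 CPM or more. Of the 20 most abundant genes 13 had a promoter and 4 of these had such a start, as did 5 of 27 among the 40 most abundant, so most abundant genes lacked it. Windows of 10 bases before and 20 from the annotated start (RefSeq, GRCh38.p14) are printed for 5 abundant genes with such a start and 2 without it, with the 5 start bases in capitals where they fit:
EEF1A1: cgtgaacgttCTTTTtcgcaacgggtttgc
EEF2: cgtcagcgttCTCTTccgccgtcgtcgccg
RPLP0: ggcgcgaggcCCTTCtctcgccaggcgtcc
TPT1: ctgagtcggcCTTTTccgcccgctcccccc
RPS3: cgagccacttCCTTTcctttcagcggagcg
ACTG1: cgcggtcggtctcagtcgccgctgccagct
MYH9: ggtgaggcgcgcagatcaccgcggttcctg
These windows lie at chr6:73521013-73521042 on the minus strand for EEF1A1, chr19:3985444-3985473 on the minus strand for EEF2, chr12:120201092-120201121 on the minus strand for RPLP0, chr13:45341164-45341193 on the minus strand for TPT1 and chr11:75399508-75399537 on the plus strand for RPS3. Those of ACTG1 and MYH9 lie at chr17:81512780-81512809 and chr22:36387948-36387977, both on the minus strand. A match of letters is a description and not evidence of regulation in these cells.

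KRT7 and MUC1, which the study stained as proteins to mark sebaceous glands in skin tissue, were both present as RNA. KRT7, a keratin of ductal and glandular epithelia, had 1401, 1326 and 1386 CPM. The membrane mucin MUC1 had 112.7, 112.5 and 109 CPM. The libraries differed little in either marker. Of 38 genes listed as markers of sebocyte differentiation or sebum, 21 reached 1 CPM, 10 were at the floor and 7 lay between. Lipid enzymes were well represented. The stearoyl-CoA desaturase SCD had 469 ± 53.1 CPM, the fatty acid synthase FASN 402, 392.0 and 386 CPM, and FADS2, which makes sapienic acid in human sebum, 248, 266 and 241 CPM. FA2H, which hydroxylates fatty acids, averaged 61.8 ± 2.83 CPM. The acute phase gene SAA1 had 66.3 ± 10.1 CPM and was lowest in control 3. Its relative SAA2 had 63.4, 60.9 and 47.5 CPM, and whether the 2 genes share reads was not tested.

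The 10 of 38 genes at the floor compare with 35.2% of all genes, a share the list did not exceed. Among them 7 had 0 counts, against 29.4% of all genes. MC5R, the melanocortin receptor of differentiated sebocytes, was one of these, as were the wax synthases AWAT1 and AWAT2, DGAT2L6, CIDEB, FABP4 and KRT79, a keratin of sebaceous ducts in mice. ELOVL3, an elongase of very long fatty acids, had 2.86, 2.16 and 2.62 CPM. PLIN1, the droplet coat of large fat stores, averaged 0.787 ± 0.131 CPM, and CIDEA, a droplet fusion protein, 0.304 ± 0.0197 CPM. PLIN2, the common marker of lipid droplets, had 14.5 ± 1.46 CPM, and its relative PLIN3 had 107 ± 2.13 CPM. Within a library PLIN3 exceeded PLIN2 6.84, 6.51 and 5.51 times per kilobase.

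Regulators of the sebaceous lineage were mostly present, with 18 of 21 at 1 CPM or more. KLF5, an epithelial growth regulator, led this list per kilobase and had 402 ± 12.3 CPM, while RUNX1 had 175 ± 4.35 CPM and GATA3 146 ± 6.27 CPM. SOX9, needed for the pilosebaceous lineage, averaged 67.3 ± 0.522 CPM, and PRDM1, known as BLIMP1 and linked to sebaceous gland size in mice, 23.4 ± 0.506 CPM. PPARG, the regulator of sebocyte and fat cell differentiation, had 14.8 ± 0.777 CPM and was highest in control 1. LRIG1, a stem cell marker of the gland in mice, had 8 counts in all and LEF1 had 4.

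CEBPB, a factor of adipocyte and sebocyte differentiation, was the exception in stability. It had 111 and 107 CPM in control 1 and control 2 but 8.001 CPM in control 3. Its relatives CEBPA and CEBPD averaged 10.7 ± 1.05 and 2.85 CPM, and KLF4, a factor of epithelial differentiation, was also lower in control 3 with 16.1 CPM, against 28.2 and 27.7 CPM. The average of CEBPB, 75.3 ± 58.3 CPM, describes none of the 3 libraries.

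**Figure D2:**
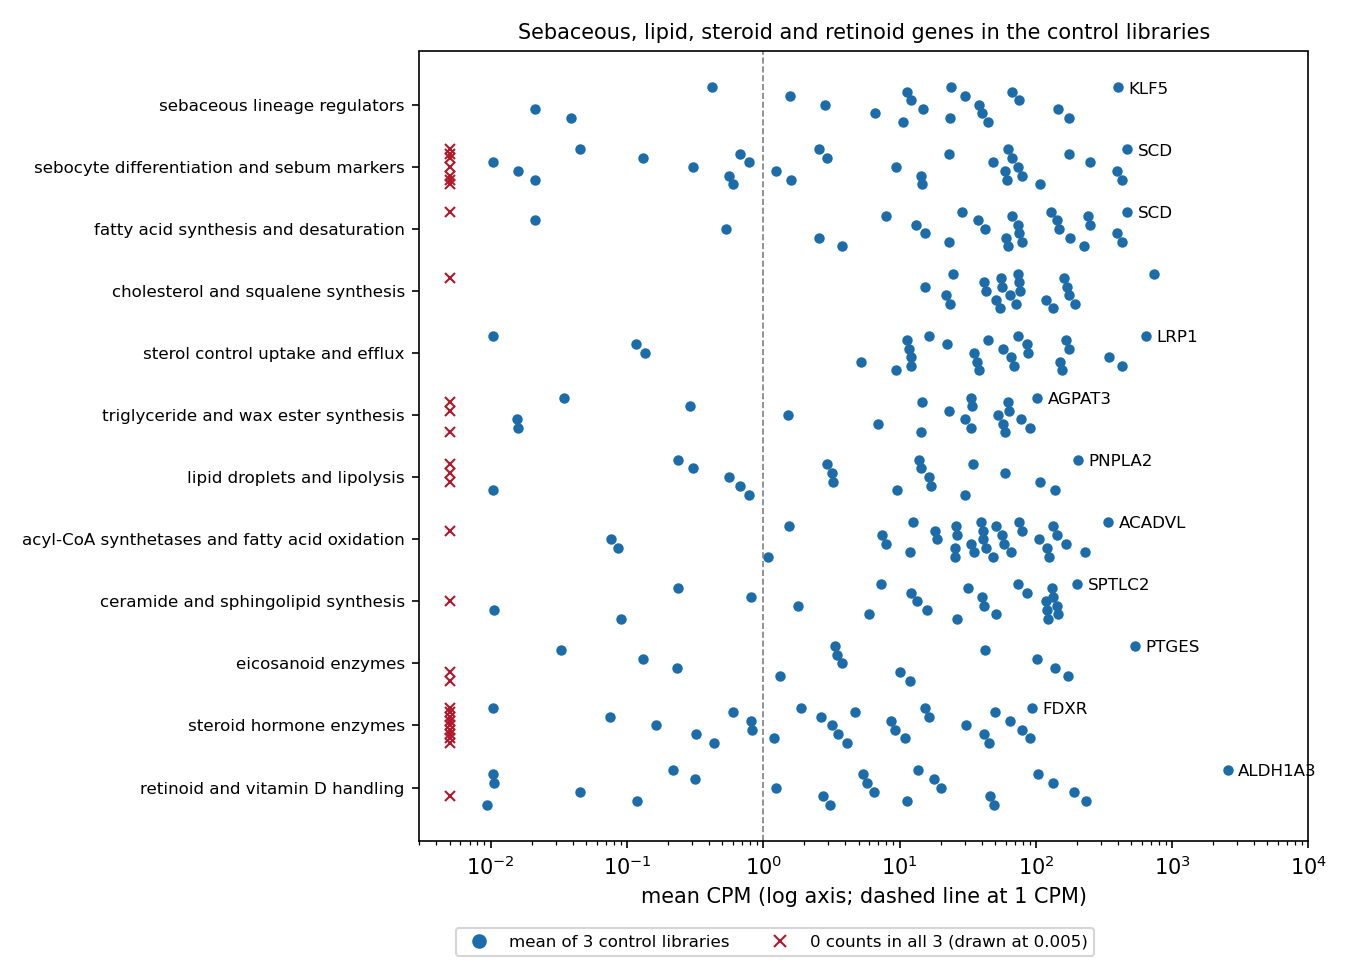
Mean CPM of the 3 control libraries is shown for each gene on a log axis, by gene list, with crosses at 0.005 for genes with 0 counts in all libraries and the leading gene of most lists named. In cholesterol and squalene synthesis IDI2 alone is at 0 and the other genes have a mean of 15.4 CPM or more.

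Fatty acid genes were expressed as a nearly complete pathway, with 25 of 28 at 1 CPM or more. ACLY, which supplies cytosolic acetyl-CoA, had 225 ± 1.75 CPM, and ACACA, the first committed enzyme, had 144 CPM. Per kilobase, the leading desaturases were FADS1 with 94.7 ± 2.21 and SCD with 87.4 ± 9.90 CPM per kilobase, whose libraries overlapped. SCD was lowest in control 3 with 410 CPM, against 484 and 513 CPM. HACD2, a dehydratase of fatty acid elongation, had 164, 171 and 51.0 CPM, with control 3 apart from the others, while its relative HACD3 had 239.9 ± 1.55 CPM and did not share this. THRSP, a lipogenic factor of fat and liver, averaged 0.0211 CPM, and the thioesterase OLAH had 0 counts.

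In cholesterol and squalene synthesis 22 of 23 genes reached 1 CPM and IDI2 alone had 0 counts. FDPS, which makes the farnesyl pyrophosphate from which squalene is built, had 194, 201 and 187 CPM. HMGCS1, which acts near the start of the pathway, had 176, 191 and 143 CPM and was lowest in control 3. Both kept the same order of libraries, with control 2 the highest. FDFT1, the squalene synthase, had 160.1 ± 8.28 CPM and SQLE, which uses squalene up, had 175 ± 9.25 CPM. The 2 values per kilobase, 60.2 ± 3.11 and 59.2 ± 3.12, were within their spread.

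Sterol control genes were present as well, with 25 of 28 at 1 CPM or more. SREBF2, the factor that mainly drives cholesterol genes, had 419, 425 and 432 CPM and SREBF1, which mainly drives fatty acid genes, had 174, 174 and 179 CPM. Per kilobase SREBF2 exceeded SREBF1 1.81 ± 0.0109 times. Their retention factor INSIG1 had 66.1 ± 7.05 CPM. SOAT1, which esterifies cholesterol, had 74.0 ± 5.34 CPM, while SOAT2, its form of liver and intestine, averaged 0.137 CPM. The fatty acid transporter CD36 was at the floor.

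Genes of triglyceride and wax ester synthesis were less complete, with 17 of 24 at 1 CPM or more and 5 at the floor. DGAT1 and DGAT2, which add the last acyl chain of triglycerides, had 62.8 ± 0.466 and 22.9 ± 1.41 CPM, and per kilobase DGAT1 was 1.82 ± 0.109 times DGAT2. FAR1 and FAR2, which make the fatty alcohols of wax esters, had 59.2 ± 10.1 and 14.7 ± 0.463 CPM, in contrast to AWAT1 and AWAT2 at 0. Among 23 genes of lipid droplets and lipolysis, 14 reached 1 CPM. The lipase PNPLA2 led with 204 ± 7.79 CPM. FABP5, a fatty acid carrier of skin with many processed copies in the genome, averaged 0.680 ± 0.126 CPM.

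Fatty acid oxidation and sphingolipid genes were broadly present, with 32 of 36 and 21 of 26 at 1 CPM or more. ACADVL, which starts the oxidation of very long chains, had 339.6 ± 14.9 CPM. CERS6 had 143 ± 5.12 CPM, whereas CERS2 had 105, 102 and 188 CPM with control 3 above the others. Both make ceramides. CERS3 and ACER1, ceramide genes of the outer epidermis, were at the floor, while the lipid transporter ABCA12 had 121, 131 and 116 CPM.

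Of 16 eicosanoid genes 11 reached 1 CPM. PTGES, the inducible prostaglandin E synthase, had 546, 529 and 514 CPM, and its CPM per kilobase of 298 ± 9.09 was the highest of the list. The cyclooxygenases upstream of it were low, PTGS1 with 11.8 ± 1.28 CPM and PTGS2 with 3.35 ± 0.274 CPM. ALOX5, which starts leukotriene synthesis, had 42.7 ± 1.84 CPM and LTA4H, a later enzyme, had 138 ± 6.01 CPM. ALOX5AP, the protein that presents arachidonic acid to ALOX5, had 7 counts, all of them in control 3.

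Of 37 steroid hormone genes, 20 reached 1 CPM and 10 were at the floor. STS, which frees steroids from their sulfates, had 64.4 ± 4.36 CPM. The 5α-reductase SRD5A1 had 45.7 ± 2.13 CPM, while SRD5A2, the form of prostate and genital skin, had 0 counts. CYP11A1, which cleaves the cholesterol side chain, had 3.54 ± 0.116 CPM, and STAR and CYP17A1, needed for classical steroid synthesis from cholesterol, had 0 counts. HSD17B1, which makes estradiol, had 9.31 ± 1.13 CPM and the aromatase CYP19A1 was at the floor. AKR1C1 and AKR1C2 share most of their sequence and their values of 0.438 and 0.163 CPM cannot be told apart with confidence.

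Retinoid genes included 1 of the most abundant transcripts. ALDH1A3 had 2521, 2536 and 2600 CPM, with a coefficient of variation of 1.65% between libraries, and its relative ALDH1A1 had 2.77, 3.07 and 3.40 CPM. Per kilobase ALDH1A3 was 448 ± 39.4 times ALDH1A1. CRABP2, which brings retinoic acid to its receptors, had 192 ± 6.03 CPM, the retinol dehydrogenase RDH10 had 133 ± 13.7 CPM and the vitamin A importer STRA6 had 103 ± 4.54 CPM. CYP26A1, which degrades retinoic acid and responds to it in many cells, averaged 0.314 ± 0.112 CPM.

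Keratins took 0.933% ± 0.0106 of all counts. Of 55 keratin genes 19 reached 1 CPM, 29 were at the floor and 7 lay between. The leading members were keratins of simple and glandular epithelia: KRT19 with 1578 ± 47.3, KRT8 with 1146 ± 15.5, KRT18 with 786 ± 24.8 and KRT7 with 782 ± 22.5 CPM per kilobase. KRT18 and KRT7 overlapped, while the steps above them exceeded the spread. KRT8 exceeded KRT18, with which it forms filaments, 1.46 ± 0.0397 times per kilobase. KRT17, a keratin of skin appendages and wounds, followed with 382 ± 14.9 CPM per kilobase.

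The keratins of epidermis were lower. KRT5 of the basal layer had 89.5 ± 3.90 CPM per kilobase and KRT14, with which it pairs, had 2.49 ± 0.334, so that KRT5 was 38.9, 39.0 and 31.2 times KRT14. KRT15, another basal keratin, had 63.1 ± 1.69 CPM. KRT10 of the suprabasal layer had 21.8 ± 1.52 CPM, but its partner KRT1 had 2 counts and KRT2 had 0. KRT4 and KRT13, a pair of moist stratified epithelia, had 98.4 ± 5.67 and 109 ± 14.7 CPM. The hair keratin KRT81 had 371 ± 15.4 CPM while 15 of 29 hair follicle genes had 0 counts, against 29.4% of all genes. KRT81 closely resembles KRT86, KRT83 and other hair keratins in sequence, and KRT6A resembles KRT6B and KRT6C, so their single values are uncertain.

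**Figure D3:**
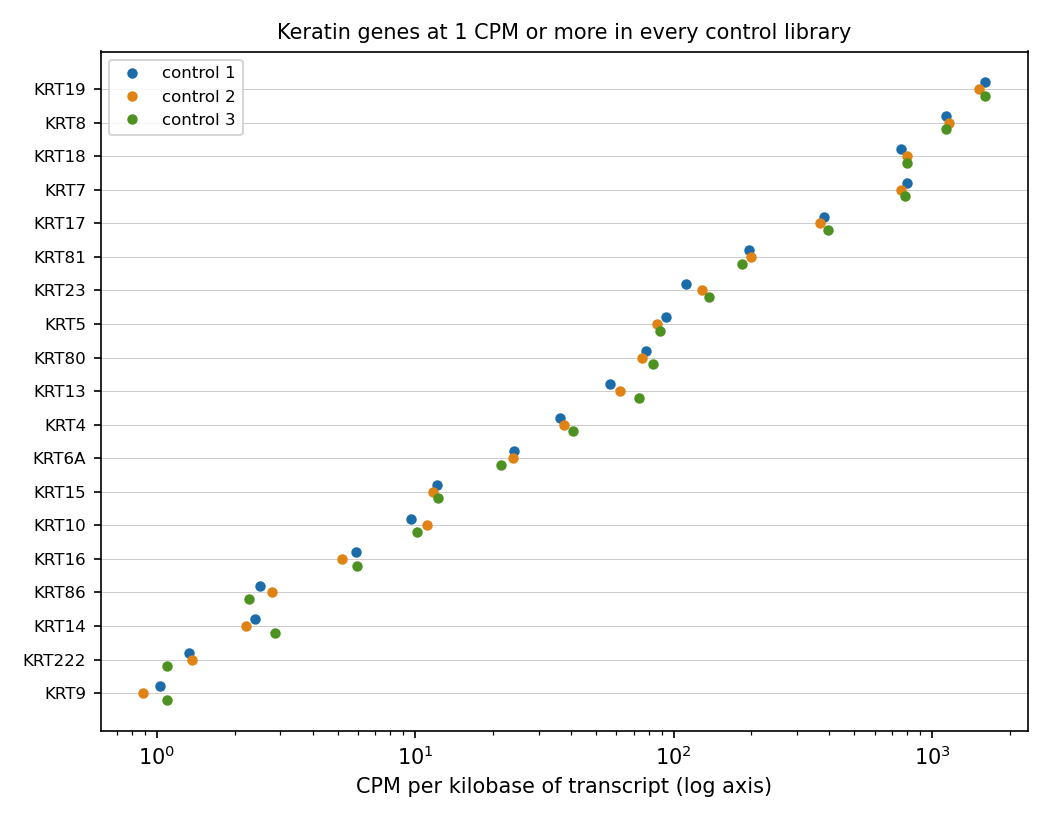
CPM per kilobase on a log axis is shown for the 19 keratin genes that reached 1 CPM in every library, with 1 point per control library. KRT19, KRT8, KRT18 and KRT7 lead, and KRT14 lies far to the left of KRT5.

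Of 15 basal keratinocyte genes 14 reached 1 CPM, KRT14 included, and DLL1, a Notch ligand, averaged 0.532 ± 0.107 CPM. The hemidesmosome integrin ITGB4 had 1031 ± 50.3 CPM and LAMB3, a chain of laminin-332, had 579 ± 30.4 CPM. TP63, the factor of stratified epithelium, had 3.53, 3.82 and 3.12 CPM. Among 32 suprabasal and cornified genes 13 reached 1 CPM. PPL and EVPL, plakins of the cornified envelope, had 706 to 800.5 and 236 to 253 CPM over the libraries, the proteases KLK7 and KLK5 had 173 ± 12.5 and 112 ± 7.69 CPM, and involucrin, IVL, had 108 ± 11.8 CPM. Filaggrin, FLG, averaged 2.94 ± 0.366 CPM, loricrin, LOR, had 6 counts, all in control 2, and the desmosomal cadherin DSG1 had 0.

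Epithelial junction genes were high, with 30 of 32 at 1 CPM or more. CDH1, E-cadherin, had 1228, 1299 and 1341 CPM and exceeded N-cadherin, CDH2, 256 ± 27.0 times per kilobase. JUP had 1651 ± 82.0 CPM and the claudins CLDN1, CLDN4 and CLDN7 had 899.7 ± 46.8, 479.9 ± 9.51 and 356 ± 6.21 CPM. CLDN1 and CLDN4 overlapped per kilobase. GJA1, the widespread gap junction protein connexin 43, had 11 counts in all.

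Markers of other cells that a skin culture can hold were mixed within each list. In the fibroblast list COL1A2, POSTN and vimentin, VIM, had 0 counts and DCN and COL3A1 were at the floor, but FBLN1 had 558 ± 17.8 CPM, SPARC 446 ± 16.5 CPM and COL1A1 42.4 ± 2.28 CPM, and 11 of 20 genes reached 1 CPM. LUM, THY1, FAP and PDGFRB were among those, at 1.65 to 3.28 CPM. The summed level of that list was 1151 to 1239 CPM over the libraries. In the endothelial list CDH5, VE-cadherin, had 197, 174 and 185 CPM, VWF averaged 4.55 CPM and ESAM 2.87 CPM, while PECAM1 averaged 0.204 CPM and CLDN5, EMCN, ERG and TEK had 0 counts, with 3 of 10 genes at 1 CPM or more and a sum of 183 to 205 CPM. In the melanocyte list MITF had 26.2 ± 1.78 CPM and PMEL 12.7 ± 0.611 CPM, while TYR, MLANA and SOX10 had 0 counts, with 2 of 11 genes at 1 CPM or more and a sum of 37.7 to 42.1 CPM. Each list thus held genes at 1 CPM or more beside genes at 0, and the share of other cells was not tested. Of the immune genes CD68, a lysosomal protein, had 61.1 ± 2.98 CPM, the invariant chain CD74 14.4 CPM and CD14 4.59 CPM, while PTPRC had 7 counts and CD3D, CD3E and MS4A1 had 0, and 5 of 18 genes reached 1 CPM with a sum of 83.1 to 89.2 CPM. In bulk RNA, few cells of a type and little RNA per cell cannot be told apart. The sweat gland products DCD, PIP, MUCL1 and SCGB2A2 had 0 counts, while SLC12A2 and FOXC1, which other epithelia also use, had 227 ± 17.4 and 63.4 ± 2.84 CPM, and the list summed to 323 to 360.3 CPM with 5 of 11 genes at 1 CPM or more. Of 11 Merkel and neural markers 1 reached 1 CPM, the tubulin TUBB3, and the Merkel cell factor ATOH1 had 0 counts.

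Genes of proliferation and cell cycle arrest were largely present, with 22 of 24 at 1 CPM or more. MKI67 had 1020, 1026 and 907 CPM and TOP2A 783, 800.2 and 607 CPM, both lowest in control 3. CDKN1A, an inhibitor of cyclin-dependent kinases, had 339.8 ± 33.0 CPM and was highest in control 3. Extracellular matrix genes were abundant, with 28 of 32 at 1 CPM or more. Besides TIMP2 and LAMA5, perlecan, HSPG2, had 1921 ± 133 CPM and fibronectin, FN1, had 1704, 1631 and 1996 CPM.

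Of 48 nuclear receptors 28 reached 1 CPM and 10 were at the floor. RXRA, the common partner of many of them, led with 276 ± 18.7 CPM and 149 ± 10.1 CPM per kilobase, and exceeded RXRB 7.15 ± 0.172 times per kilobase. NR2F2 had 226 ± 2.54 CPM, the retinoic acid receptor RARG 122 ± 7.17 CPM, the glucocorticoid receptor NR3C1 116, 116 and 95.3 CPM and the vitamin D receptor VDR 70.1 ± 3.34 CPM. Per kilobase RARG was 4.49 ± 0.315 times RARA. PPARD had 80.3 ± 4.59 CPM and exceeded PPARG 2.61, 2.84 and 3.24 times per kilobase.

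The estrogen receptor ESR1 had 0.3998, 0.985 and 1.13 CPM, ESR2 averaged 0.465 ± 0.154 CPM and the progesterone receptor PGR had 0 counts. Control 1 was the lowest for ESR1. The aryl hydrocarbon receptor AHR, which senses combustion products, had 28.2, 27.6 and 27.0 CPM, and its partner ARNT 76.3 ± 3.09 CPM. Its target CYP1A1 had 3.10, 3.08 and 4.18 CPM and CYP1B1 7.17 ± 0.369 CPM in these vehicle cells. NQO1, a target of both AHR and NFE2L2, had 159 ± 5.56 CPM.

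In the melanocortin and CRH list 2 of 17 genes reached 1 CPM and 11 were at the floor. MC1R had 9.05, 8.71 and 8.06 CPM, while POMC, CRH, CRHR2 and MRAP had 0 counts and CRHR1 had 5 counts, all in control 3. UCN2, a CRH-related peptide, was the other gene at 1 CPM or more, with 5.24 CPM. Among 36 receptors for neuropeptides, amines and acetylcholine, 8 reached 1 CPM, 16 were at the floor and 12 lay between, and the histamine receptor HRH1 had 15.7 ± 1.41 CPM. Of 17 genes of the endocannabinoid and TRP channel list 11 reached 1 CPM. The cannabinoid receptors CNR1 and CNR2 had 0 counts, although the enzymes DAGLA, MGLL and FAAH that make or degrade their ligands had 83.0, 34.7 and 13.4 CPM. The calcium channels TRPV6 and TRPV4 had 56.5 ± 3.98 and 45.0 ± 2.02 CPM, and the heat and capsaicin channel TRPV1 19.2 ± 1.12 CPM.

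Of 33 growth factor receptors 23 reached 1 CPM and 10 reached 100 CPM in every library. DDR1, a collagen receptor, had 427 ± 8.51 CPM, ERBB2 359 ± 16.8 CPM, the HGF receptor MET 357 ± 30.2 CPM and ERBB3 333 ± 18.2 CPM. EGFR had 158, 153 and 156 CPM and was below these per kilobase with 15.8 ± 0.257 CPM per kilobase. Its ligand TGFA had 89.8 ± 1.47 CPM while EGF had 13 counts in all. HGF, IGF1 and the fibroblast growth factors FGF7 and FGF10 had 0 counts. IGF1R had 244 ± 8.65 CPM, while the insulin receptor INSR averaged 0.916 ± 0.193 CPM and the growth hormone receptor GHR had 22 counts in all. HCAR2, the niacin and hydroxybutyrate receptor, had 76.1 ± 3.08 CPM. NOTCH2 had 410.0 ± 25.3 CPM. In the Hedgehog pathway PTCH1 had 51.1 ± 6.36, SMO 36.0 ± 3.99 and GLI2 30.6 ± 1.73 CPM, and GLI1 had 24 counts.

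Of 40 cytokine receptors 27 reached 1 CPM. OSMR, the oncostatin M receptor, had 217 ± 17.4 CPM and IL1R1 176 ± 14.6 CPM. IL6ST, the signalling chain shared by receptors of the IL-6 family, had 152 and 143 CPM in control 1 and control 2 but 49.5 CPM in control 3, while IL6R was even with 3.36, 3.13 and 3.13 CPM. Among pattern recognition genes 18 of 25 reached 1 CPM. TLR1, TLR3 and TLR6 had 41.7 ± 4.82, 34.2 ± 5.31 and 25.4 ± 4.36 CPM, each lowest in control 3. TLR2, with which TLR1 and TLR6 pair, had 2.42 ± 0.386 CPM and TLR4 had 7.93 ± 0.672 CPM.

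**Figure D4:**
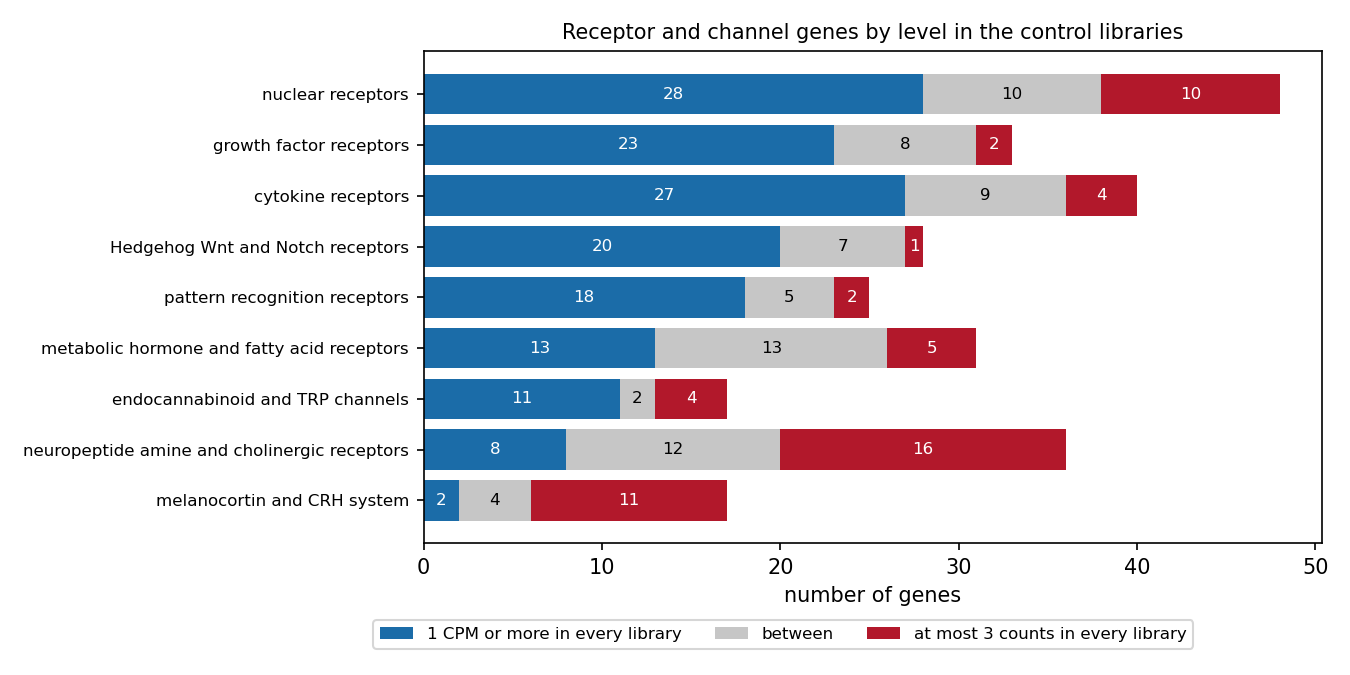
Stacked bars give the number of genes of each receptor or channel list that reached 1 CPM in every control library, that were at the floor of at most 3 counts in every library, or that lay between. Nuclear receptors have 28 genes at 1 CPM or more, and the melanocortin and CRH list has 2 of 17.

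Of 44 cytokines, chemokines and antimicrobial peptides 18 reached 1 CPM, against 48.7% of all genes. LCN2, which binds bacterial siderophores, had 714, 666 and 611 CPM, and the protease inhibitor SLPI had 170.4 ± 2.12 CPM. The growth and stress cytokine LIF had 102, 109 and 105 CPM, the IL-1 antagonist IL1RN 89.9 ± 10.9 CPM and IL18 53.9 ± 1.24 CPM. The cytokine MIF and the chemokine CXCL16 had 171 ± 11.2 and 125 ± 3.17 CPM. In contrast, IL1B averaged 0.994 ± 0.253 CPM, IL6 1.55 ± 0.289 CPM and CXCL8 1.20 ± 0.551 CPM, with control 1 the highest for each. TNF, IL33, CCL2, CXCL14 and the antimicrobial peptide CAMP had 0 counts.

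Of 39 HOX genes 22 reached 1 CPM. HOXA10 had 20.9 ± 1.10, HOXB7 14.9 ± 0.358 and HOXC10 14.7 ± 0.475 CPM. In contrast, the 9 HOXD genes of the list all had 0 counts in every library. The limb factor PITX1 had 52.9 ± 1.07 CPM and TBX3 34.3 ± 2.99 CPM. Of 23 facial and skin positional factors 7 had 0 counts, DLX5 and DLX6 among them, a share close to the 29.4% of all genes.

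The spread between the 3 libraries was small for most genes. Over 13990 genes with a mean count of at least 50, the median coefficient of variation was 5.78%, against 2.31% from counting alone. The figures for counting alone take each count as an independent event, which could not be checked because how reads were counted is not given. Without control 3 the median over the other libraries was 3.18%, and without control 1 or control 2 it was 5.54% and 5.49%. These medians rest on fewer libraries than the 5.78% and are comparable only with each other. The median was 10.6% at mean counts of 50 to under 500, where counting alone gives 7.40%, and 4.05% at 50000 or more, where it gives 0.370%. For the deepest genes the differences between libraries thus exceeded counting error several times over. Pearson's r of log2(CPM + 0.5) across genes was 0.998 for each pair, where genes are not independent, and the chi-square per gene averaged 16.1 to 31.1 with medians of 1.65 to 3.10, so that a minority of genes carried much of the mean.

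The 12 genes with the largest spread beyond counting were mainly loci that share sequence with others. LY75-CD302 had 0, 12.03 and 0 CPM, BIVM-ERCC5 0, 8.99 and 0 CPM and DNAAF4-CCPG1 0, 0 and 2.90 CPM. These are readthrough loci, whose transcripts join neighbouring genes. More of that kind, TSNAX-DISC1, TMX2-CTNND1 and C7orf55-LUC7L2, and the copied genes RGPD8, U2AF1L5 and FAM72D were among the 12. U2AF1L5 had 0.975, 1.03 and 20.8 CPM, while its sum with the splicing factor U2AF1, of which it is a copy, was 84.9, 82.4 and 85.0 CPM. The other 3 were CDRT4, the microRNA host MIR17HG and the ubiquitin ligase PJA1 with 6.20, 4.33 and 34.1 CPM.

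Well measured genes could also differ in 1 library. Of 10807 genes with a mean count of at least 500, 59 had 1 library at least 2-fold from both others while those lay within 25% of each other. Control 3 was apart for 29 of them, control 1 for 15 and control 2 for 15, and the library apart was the lower one for 47. CEBPB, HACD2 and IL6ST were the genes of the lists among them. Others were IGFBP3, a carrier of insulin-like growth factors, with 1169, 2691 and 1040 CPM, GLUL, the glutamine synthetase, with 1454, 1469 and 708 CPM and ADNP with 255, 252 and 68.5 CPM. EIF3C had 504, 154 and 526 CPM and its near-identical copy EIF3CL 121, 406 and 133 CPM. Their sum was more even than either gene, with 625, 560.1 and 659 CPM and a coefficient of variation of 8.19%. For IGFBP3, GLUL, CEBPB and IL6ST no such partner was examined and the cause was not tested.

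**Figure D5:**
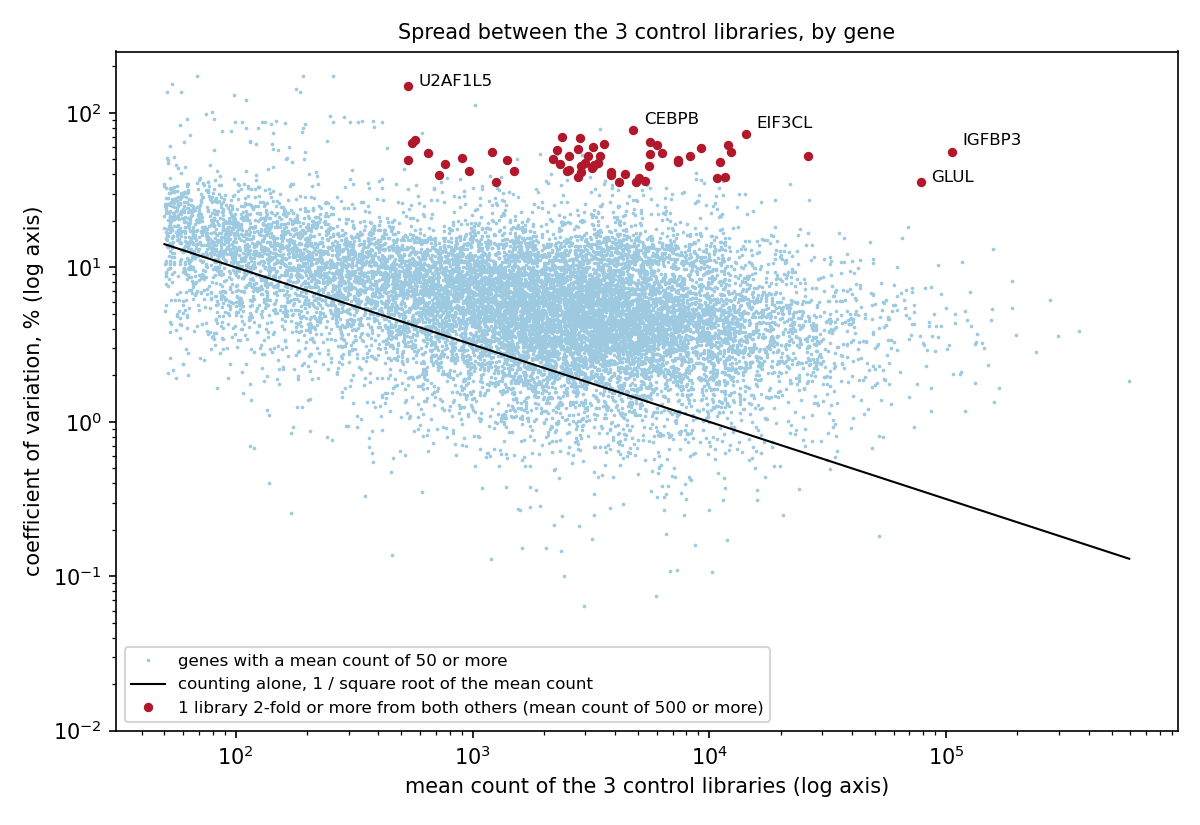
The coefficient of variation over the 3 control libraries is plotted against the mean count of each of 13990 genes on log axes, with the line that counting alone gives. The 59 genes with 1 library at least 2-fold apart lie above the cloud, from U2AF1L5 to IGFBP3 and GLUL.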

How the data were processed

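Polyadenylated RNA of SZ95 cells was sequenced from stranded libraries. The authors deposited one table of read counts per gene, not normalized. The submitters' processing notes list DESeq2, StringTie 1.3.3b, Trimmomatic 0.32 and HISAT2 2.0.5, with the build hg19. How reads were counted, and whether strand was used, is not given in the sources used here, so overlapping and antisense genes may share reads. The 3 control columns were used and the other 3 per-sample columns were not. The mitochondrially encoded genes analysed here were RNR1 and RNR2.

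CPM were counts divided by each library's total over genes, on a common scale. Lengths came from the longest GENCODE release 29 transcript, matched by RefSeq accession for 25767 genes and by Gene ID for 390. Start sequences came from RefSeq promoters. The biological coefficient of variation was estimated with edgeR 4.0.16 (R 4.3.3) on genes kept by filterByExpr, tested on simulated data. Alternatives used TMM factors (0.995 to 1.00), DESeq2 1.42.0 size factors, a total without mitochondrial ribosomal RNA, other thresholds, and leaving out each library. No test between groups was made.

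The text names the 20 genes highest by CPM and by CPM per kilobase, the 12 most variable beyond counting, members of 44 gene lists (1008 genes, of which 633 reached 1 CPM) and leading members of gene classes. Members and lists were chosen with earlier results of these data known. IGFBP3, GLUL, ADNP, EIF3C, EIF3CL, RPL21, SAA2, CYP1A1, CYP1B1 and NQO1 were chosen after their values were seen. So were the genes and families in the closing observations. Some genes that this rule would name are not reported here.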

Additional observations from a re-analysis of the deposited data

How the results depend on the processing

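The number of genes at 1 CPM or more in every library was 13473 and stayed within 1.5 times under each alternative tried, from 12364 genes at 1 CPM per kilobase to 14207 genes at 0.5 CPM. Without mitochondrial ribosomal RNA the 10 most abundant genes took 3.44% of counts in place of 4.07%. Of the 20 leading genes by CPM, 11 were among the 20 leading genes per kilobase of the longest transcript and 10 per kilobase of the median transcript length, an alternative chosen after seeing the data. The median coefficient of variation was 3.18% to 5.54% with 1 library left out, lowest without control 3, and 8.30% with no filter on low counts. The medians with 1 library left out rest on fewer libraries and are comparable only with each other. The biological coefficient of variation was 9.57%, and 7.57% to 10.7% with 1 library left out. Under another scaling no mean of the 633 list genes at 1 CPM or more moved over 1.5-fold. With 1 library left out these means moved by -23.6% to 44.7%. Leaving out 1 of 3 libraries cannot raise a mean over 1.5-fold, so a rise could not pass that limit. No paired analysis was possible because only 1 group was used. With 3 libraries an SD is itself imprecise, and at levels near 1 CPM counting error sets much of the spread.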

Other observations

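The families and genes given here were chosen after their values were seen. Of 17 mucin genes 6 reached 1 CPM, against 48.7% of all genes, and the family took 0.526% ± 0.0414 of the counts. Besides MUC16, the membrane mucins MUC4 and MUC20 had 1314, 1331 and 1574 CPM and 824, 859 and 904 CPM, each highest in control 3, while the secreted mucin MUC5AC averaged 0.221 CPM. Per kilobase MUC20 led with 333 ± 15.5 CPM per kilobase, above MUC4 with 82.2 ± 8.49, MUC16 with 65.5 ± 5.38 and MUC1 with 60.7 ± 1.07 CPM per kilobase, and the libraries of MUC16 and MUC1 overlapped. The central complement component C3 had 1946, 1765 and 1801 CPM and the factor CFB had 107 ± 10.8 CPM, and 9 of the 20 complement genes listed had 0 counts, against 29.4% of all genes.

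Of 19 interferon-induced genes listed, 19 reached 1 CPM. OAS3, which starts the degradation of viral RNA, had 158 ± 2.95 CPM, IFITM3 had 150.3 ± 7.98 CPM and MX1 76.2 ± 3.61 CPM. HLA-C had 315, 225.5 and 318 CPM, with control 2 below the others, and the HLA genes are polymorphic, so these values are uncertain. The metallothionein MT2A had 40.2 ± 4.34 CPM.

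Further genes outside the lists, picked one by one, ranged widely. PSCA, a small anchored surface protein, had 795, 788 and 876 CPM, CD24 1116 ± 10.3 CPM, the epithelial transcription factor ELF3 1063 ± 15.4 CPM and the GABA receptor subunit GABRP 846 ± 52.0 CPM. LYPD3, another anchored surface protein, had 89.7 ± 6.19 CPM and the secretory pathway protein AGR2 22.1 CPM. ST14, the membrane protease matriptase, had 552 ± 13.1 CPM and its inhibitor SPINT1 863 ± 41.0 CPM. RARRES1 and RARRES3, named for their response to retinoids in skin cells, had 869 ± 15.3 and 507 ± 4.68 CPM. The HOXD cluster together with its neighbour EVX2 had 0 counts in all 10 genes, whereas 9 of 11 HOXA genes, 5 of 10 HOXB genes and 8 of 9 HOXC genes reached 1 CPM.

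The sum of MTPN and the overlapping gene LUZP6 was less even than that of EIF3C and its copy. MTPN had 153, 54.6 and 54.0 CPM and LUZP6 6.88, 52.9 and 47.8 CPM, and their sum was 159.7, 107 and 102 CPM.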
